A study of Ovis aries with 40 samples.

Results

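Of the 24478 genes in the count tables of fetal and newborn sheep lung, 53 were higher in every CF library than in any WT library. They were chosen by the values themselves. A gene entered when its lowest CPM, the read count scaled to the total of its library, among 20 CF libraries exceeded its highest CPM among 20 WT libraries and its median CF CPM was 1 or more. Genes whose symbols begin with ABC, SLC, KCN, COL, ITG, KIF, DNAH, WNT, HOX or NDUF were set aside, which removed 2 genes (SLC25A47 and SLC18B1) of the 55 that met the other limits. The separation of CF from WT is therefore a property the genes were selected on, and CF against WT levels and ratios below are descriptions without a test. Of the 14520 genes with a median CF CPM of 1 or more, 0.365% met the rule. The mirrored rule, with every CF library below every WT library, kept 14 of 14260 genes, or 0.0982%.

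Lung of WT and CFTR-/- (CF) sheep was sampled in a proximal and a distal region at 65, 80, 100 and 120 days and at term (day 147), and each genotype, region and day is represented by 2 libraries. CF animals were cloned by somatic cell nuclear transfer from fibroblasts of a single male line in which CFTR had been disrupted in exon 2, and the WT animals were bred naturally. The sex of the WT animals is not given in the sources used here. Breeding, cloning, the single donor line, any difference in sex and genotype therefore cannot be told apart in any CF against WT value. Of 8 X-linked genes of the sex-linked list in the table, 2 had a mean log2 CF/WT above 0 (median -0.35), and their part in the values below was not tested. All were American Romney sheep, the WT term animals were born naturally, and RNA was taken from homogenized frozen pieces with no sorting of cells. The labels call the material epithelial, and markers of epithelium summed to 672 to 1713 CPM in CF and 714 to 3000 CPM in WT, but endothelial markers (988 to 2514 and 912 to 2175 CPM) and fibroblast markers (1592 to 4767 and 2044 to 4654 CPM) were as abundant. By the animal labels, both day 100 libraries of a WT region came from the same sheep, and 1 label occurs in both genotypes, on WT day 65 replicate 2 and CF day 100 replicate 2. In such bulk tissue, more cells of a type and more RNA per cell cannot be told apart.

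A primary transcript gains its final form when introns are removed by the spliceosome, and genes differ greatly in how many introns they have and how long these are. Splicing factors are themselves regulated at this step, because their transcripts can keep an intron or take in an exon that stops translation. Cystic fibrosis follows from loss of the CFTR chloride and bicarbonate channel, which in the fetal lung is found in the epithelium of the airways.

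Depth differed between the genotypes before term. The 16 WT libraries before term held 24670355 to 43700012 counted reads and the 16 CF libraries 85773994 to 103139483, while at term the 4 WT libraries held 115937437 to 126749480 and the 4 CF libraries 117316905 to 119451372. CFTR, the targeted gene, ran from 8.80 to 45.0 CPM in WT and from 2.94 to 39.2 CPM in CF, and these ranges overlapped. At term it was at 8.80 to 14.1 CPM in WT and 2.94 to 3.97 CPM in CF. Mitochondrial transcripts took 1.90% to 2.41% of reads in WT and 0.942% to 2.27% in CF. Of the cell type lists, macrophage markers (8 genes in the table) had a median log2 CF/WT of -0.74 over the 7 with a median CPM of 1 or more, with sums of 81.0 to 312 CPM in CF and 89.8 to 1529 CPM in WT. The 7 smooth muscle genes had a median of 0.69, with sums of 216 to 1710 CPM in CF and 307 to 969 CPM in WT. No gene of any cell type list was among the 53. Their part in the values below was not tested.

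Of 10 heart muscle genes in the table, a list drawn up after the values were seen, 9 were higher in CF proximal replicate 1 at 65 days and CF proximal replicate 2 at 80 days than in all 38 other libraries. The 10 genes summed to 1588 and 785 CPM in these libraries, against 0.861 to 37.0 CPM in the other 18 CF libraries and 1.38 to 31.0 CPM in WT. With both left out, the rule kept the same 53 genes. Leaving out CF libraries can remove a member only through the limit on the median, so their staying is no test of these libraries.

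The distance between the genotypes varied widely among the 53 genes. The ratio of the lowest CF to the highest WT library, called the gap here, ran from 1.00 to 1.88 with a median of 1.11, and 24 genes had a gap of 1.1 or less. The ratio of median CF to median WT CPM ran from 1.42 to 9.62 with a median of 2.78, was 2 or more for 39 genes and 4 or more for 13. Just inside the limit lay LOC106991824, CNNM3 and GABRE with gaps of 1.003, 1.002 and 1.001, and just outside it GMPPA, DGAT1 and TFAP2E with gaps of 0.998, 0.994 and 0.993. Nearest to the limit on level were LOC101104522 and PDIA2, with median CF CPM of 1.01 and 1.81, and no gene with separated ranges had a median CF CPM under 1. Scaling mattered for the small gaps: 35 of the 53 met the rule under each of TMM-scaled, RLE-scaled and depth-thinned counts, among them 19 of the 20 genes with the largest gaps.

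**Figure D1:**
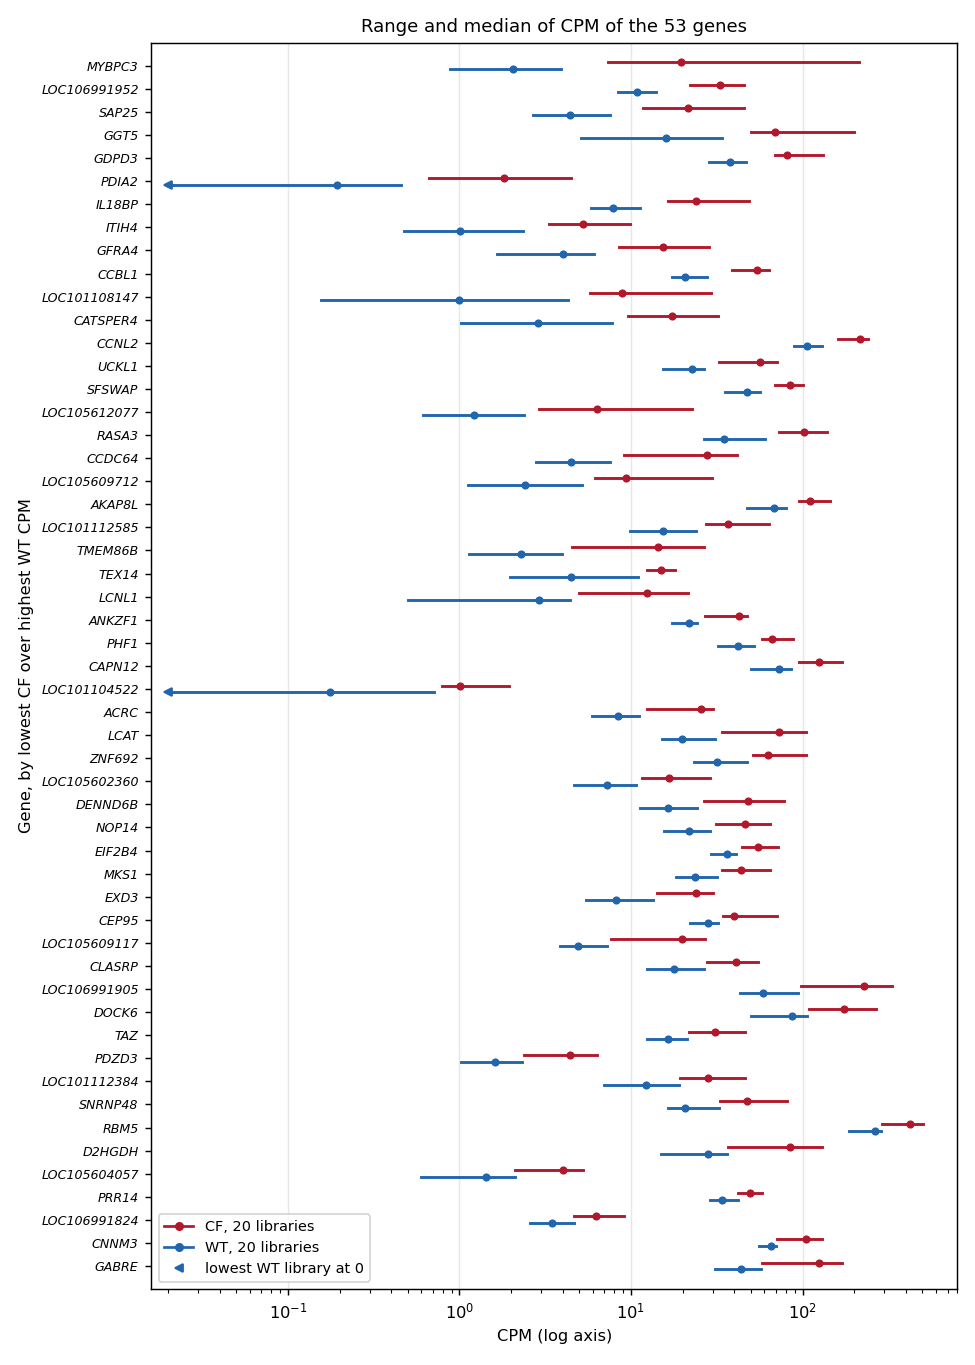
CPM of the 53 genes on a log axis, with a line from the lowest to the highest of 20 CF (red) or 20 WT (blue) libraries and a point at the median; an arrow marks a lowest WT library at 0. The genes are ordered by gap, from MYBPC3 at 1.88 at the top to GABRE at 1.00 at the bottom, and the red and blue lines of a gene never overlap, as the rule requires.

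Together the 53 genes took 0.121% to 0.162% of all counted reads in WT libraries, 0.282% to 0.394% in CF libraries before term and 0.233% to 0.254% in CF libraries at term. The rule requires these shares to be apart. With every library thinned to 24670355 reads, 46 of the 53 genes met the rule.

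By their RefSeq entries (assembly ARS-UI_Ramb_v3.0), 41 of the 53 genes are protein coding and 1, LOC105604057, is a long non-coding RNA, and 11 had no entry under their symbol or gene ID. These are 77.4%, 1.89% and 20.8% of members, beside 86.5%, 1.47% and 11.4% of the genes with a median CPM of 1 or more. The members without an entry include CCBL1, CCDC64, ACRC, TAZ and PDZD3, whose known functions are given below. A missing entry therefore does not mean that a gene is non-coding. LOC symbols made up 22.6% of the 53, against 16.0% of the 14870 genes with a median CPM of 1 or more over all libraries. LOC105609712 has the gene ID that RefSeq names SMIM1. The 41 genes with other symbols were sorted by known function after the genes were seen, into enzymes (11), RNA splicing and processing (7), signalling and trafficking (6), chromatin and transcription (5), secreted proteins (3), channels and transport (3), cilia, centrosome and germ cell bridges (3), translation (2) and the sarcomere (1).

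MYBPC3 (chr15:75304260-75322007, minus strand, Oar_v4.0, 32 exons) had the largest gap. It encodes cardiac myosin-binding protein C of the sarcomere. Its CPM was 0.876 at the lowest, 2.04 at the median and 3.89 at the highest in WT, and 7.33, 19.6 and 215 in CF. The 2 highest CF values, 215 and 110 CPM, were those of the CF proximal libraries with heart muscle transcripts, at 65 and 80 days. In the other 18 CF libraries MYBPC3 was at 7.33 to 45.1 CPM, above all WT libraries as the rule requires. Heart muscle genes differed in these 18: NKX2-5, a cardiac transcription factor, was at 0 in all 18, NPPA, the atrial natriuretic peptide precursor, was at 0 in 15 and no higher than 0.0635 CPM, and MYL7, the atrial myosin light chain, was no higher than 0.220 CPM. ACTC1, cardiac actin, reached 19.95 CPM there and 12.5 CPM in WT, and the myosin light chains MYL4 and MYL2 reached 8.06 and 5.11 CPM there and 4.17 and 5.25 CPM in WT. Their part in the MYBPC3 values was not tested. Without the heart-rich library the log2 CF/WT of MYBPC3 in proximal lung was 1.86 in place of 5.78 at 65 days and 2.96 in place of 4.39 at 80 days. Of the skeletal muscle list (6 genes in the table), TNNT3, fast skeletal troponin T, was the main contributor, at 20.2 to 74.7 CPM in CF and 3.40 to 27.4 CPM in WT, and MYOG, the myogenic regulator myogenin, was at 0 in 32 of 40 libraries.

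**Figure D2:**
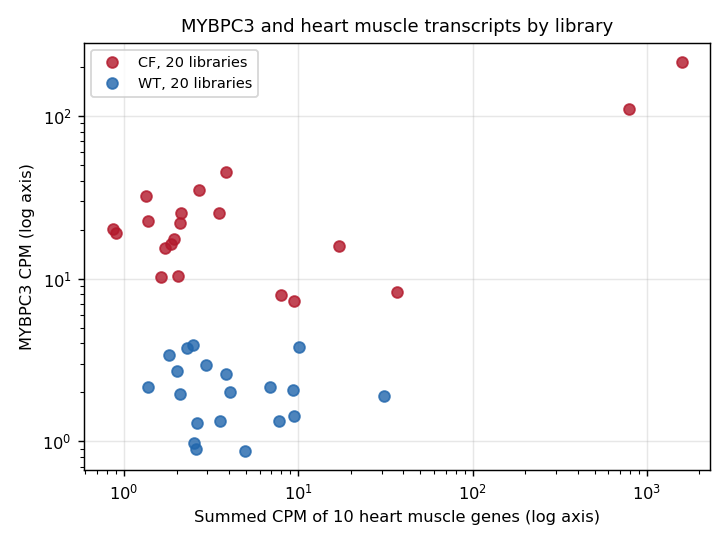
MYBPC3 CPM against the summed CPM of 10 heart muscle genes, both on log axes, with a point for each of 20 CF (red) and 20 WT (blue) libraries. The 2 CF libraries at the upper right have sums of 785 and 1588 CPM, and the other 18 CF libraries lie above the WT libraries, as the rule requires.

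RNA splicing and processing held 7 genes with gaps from 1.01 to 1.24 and ratios of medians from 1.61 to 2.29. CCNL2 (chr12:49132133-49140862, plus strand, 12 exons), a cyclin that acts with CDK11 in splicing, was at 89.4, 107 and 129 CPM at the lowest, median and highest in WT and at 160, 215 and 242 CPM in CF. RBM5, an RNA-binding protein of early spliceosomes, was the most abundant of the 53 genes, at 186, 264 and 289 CPM in WT and 292, 424 and 504 CPM in CF. Its ratio of medians was small, and the last WT and the first CF library lay 1.01-fold apart. SFSWAP, a regulator of alternative splicing, ran from 35.5 to 56.9 CPM in WT and from 69.5 to 100.1 CPM in CF. SNRNP48, a protein of the minor spliceosome, ran from 16.4 to 32.7 CPM in WT and from 33.2 to 81.4 CPM in CF. AKAP8L, a nuclear anchoring protein, had a gap of 1.19, CLASRP, which binds the splicing kinase CLK4, one of 1.05, and NOP14, a factor of small ribosomal subunit assembly, one of 1.08.

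The list of splicing factors gives the wider view. Of 46 listed genes in the table, 2 (CCNL2 and RBM5) were among the 53, and 42 of the 46 had a mean log2 CF/WT above 0, with a median of 0.47, beside 52.9% of the 14870 genes and a median of 0.03. PRPF40B (1.03) and ARGLU1 (1.02) had larger differences than CCNL2 (0.96) but ranges that overlapped: ARGLU1 was at 103.6 to 179.9 CPM in WT and 104.1 to 374.8 CPM in CF. At the other end, SRSF3 had a mean log2 CF/WT of -0.25 and PRPF38B of -0.18.

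Of the chromatin and transcription genes, SAP25 (chr24:35846446-35848372, plus strand, 6 exons), a protein of the Sin3A corepressor complex, had a gap of 1.55. It was at 2.702, 4.43 and 7.57 CPM at the lowest, median and highest in WT, and at 11.7, 21.4 and 45.4 CPM in CF. In proximal CF lung it went from 34.0 ± 16.1 CPM at 100 days to 12.2 ± 0.643 CPM at term (SD, n = 2), its lowest CF value. ACRC, a germ cell nuclear acidic protein on the X chromosome, ran from 5.95 to 11.2 CPM in WT and from 12.4 to 30.1 CPM in CF. PHF1, a Polycomb-associated histone reader, the zinc finger gene ZNF692 and PRR14, which tethers heterochromatin to the nuclear lamina, had gaps of 1.11, 1.097 and 1.004. The translation genes EIF2B4, a subunit of the exchange factor eIF2B, and ANKZF1, which acts on stalled ribosomes, had ratios of medians of 1.501 and 1.97.

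The enzymes were the largest group, with ratios of medians from 1.72 to 9.30. GGT5 (chr17:70693903-70702739, minus strand, 12 exons), a gamma-glutamyltransferase that converts leukotriene C4 to D4, was at 5.13, 16.0 and 33.8 CPM in WT and at 50.0, 69.2 and 200 CPM in CF. GDPD3, a phosphodiesterase of lysophospholipids, was at 28.5, 38.0 and 46.9 CPM in WT and at 69.0, 81.4 and 131 CPM in CF. PDIA2, a protein disulfide isomerase known from pancreas, had the second largest ratio of the 53 (9.30) at low level, with 0 to 0.458 CPM in WT and 0.668 to 4.50 CPM in CF. CCBL1, a kynurenine aminotransferase, ran from 17.5 to 27.8 CPM in WT and from 38.8 to 63.4 CPM in CF. UCKL1, a uridine-cytidine kinase, had a gap of 1.23. LCAT, which esterifies cholesterol on plasma lipoproteins, and D2HGDH, which oxidizes D-2-hydroxyglutarate, had high ratios of medians (3.69 and 3.003) but small gaps (1.097 and 1.01). The CF term libraries were at 36.8 to 41.9 CPM for D2HGDH and 34.0 to 50.4 CPM for LCAT, above highest WT libraries of 36.4 and 31.0 CPM. TMEM86B, a lysoplasmalogenase, was at 1.14 to 3.98 CPM in WT and 4.53 to 26.8 CPM in CF. The phospholipid transacylase gene TAZ, the calpain gene CAPN12 and the exonuclease domain gene EXD3 had gaps of 1.03, 1.11 and 1.07.

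The secreted proteins were IL18BP, which binds and neutralizes interleukin 18, the acute phase protein gene ITIH4 and the lipocalin-like gene LCNL1. IL18BP was at 5.83, 7.91 and 11.4 CPM at the lowest, median and highest in WT and at 16.4, 23.9 and 48.6 CPM in CF. ITIH4 ran from 0.477 to 2.36 CPM in WT and from 3.35 to 9.83 CPM in CF. LCNL1 ran from 0.5003 to 4.39 CPM in WT and from 4.98 to 21.6 CPM in CF. Neither the inflammatory list (28 genes in the table, median log2 CF/WT of -0.40 over 19 measured) nor the liver list held a member.

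In signalling and trafficking, GFRA4, the persephin receptor of the GDNF family, was at 1.65, 4.04 and 6.06 CPM in WT and at 8.52, 15.4 and 28.6 CPM in CF. CCDC64, a dynein adaptor, had the largest ratio of medians of the group (6.15), with 2.78 to 7.59 CPM in WT and 9.08 to 41.5 CPM in CF. RASA3, a GTPase-activating protein of Ras and Rap, ran from 26.7 to 60.7 CPM in WT and from 72.8 to 139 CPM in CF. DOCK6, an exchange factor of Rac1 and Cdc42, was among the 5 genes of highest median CF CPM (174), with RBM5 (424), LOC106991905 (228), CCNL2 (215) and CAPN12 (125). DENND6B, a Rab exchange factor, and PDZD3, a PDZ scaffold of epithelial membranes, had gaps of 1.09 and 1.02.

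CATSPER4 (chr2:239772064-239788567, minus strand, 10 exons), a subunit of the calcium channel of sperm, was at 1.02, 2.87 and 7.72 CPM in WT and at 9.60, 17.4 and 31.9 CPM in CF. GABRE, the epsilon subunit of GABA-A receptors, and CNNM3, a mediator of magnesium transport, had the smallest gaps of all. TEX14, a protein of the bridges between germ cells, was at 1.97 to 10.9 CPM in WT and at 12.5 to 18.1 CPM in CF. MKS1, a protein of the ciliary transition zone, and CEP95 (chr11:48054091-48092341, plus strand, 20 exons), a centrosomal protein, had ratios of medians of 1.86 and 1.42, the latter the lowest of the 53. The ciliated airway list held no member. CATSPER4, TEX14, ACRC, MYBPC3 and GABRE are known chiefly from germ cells, heart or brain, and were all counted in each WT library too, so none of them was limited to CF lung.

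The LOC genes with the largest gaps were LOC106991952, LOC101108147 and LOC105612077. LOC106991952 was at 8.35 to 14.1 CPM in WT and 22.2 to 45.5 CPM in CF, with its lowest CF value in proximal replicate 1 at 100 days. The replicates of CF distal lung at term were at 22.19 and 45.5 CPM. LOC101108147 ran from 0.155 to 4.27 CPM in WT, with its highest WT values at 80 days, 3.86 ± 0.245 CPM in proximal and 4.15 ± 0.169 CPM in distal lung (SD, n = 2), and from 5.74 to 29.1 CPM in CF. LOC105612077 ran from 0.614 to 2.39 CPM in WT and from 2.90 to 22.7 CPM in CF. Per kilobase of exon, the highest median CF levels were those of RBM5 (134 CPM per kb) and LOC106991905 (130 CPM per kb), followed by LCAT at 49.6 and CCNL2 at 47.6 CPM per kb.

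By time and region, the difference in CPM was smallest at term, an order that did not hold in proximal lung with TMM or RLE scaling. The median log2 CF/WT over the 53 genes in proximal lung was 1.43 at 65 days, 1.47 at 80, 1.53 at 100, 1.53 at 120 and 1.08 at term. In distal lung it was 1.47, 1.47, 1.54, 1.30 and 0.91. The median over the 14870 genes was between 0.04 and 0.19 before term in both regions, and -0.21 in proximal and -0.28 in distal lung at term, so the whole distribution moved down with the 53 genes. With TMM scaling, which removes such a common shift, the term median of 1.26 in proximal lung lay within the range of its other days (1.25 to 1.55), and that of 1.15 in distal lung lay just under it (1.2005 to 1.45). Leaving out the heart-rich CF library gave a median of 1.38 in proximal lung at 65 days and of 1.55 at 80 days.

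**Figure D3:**
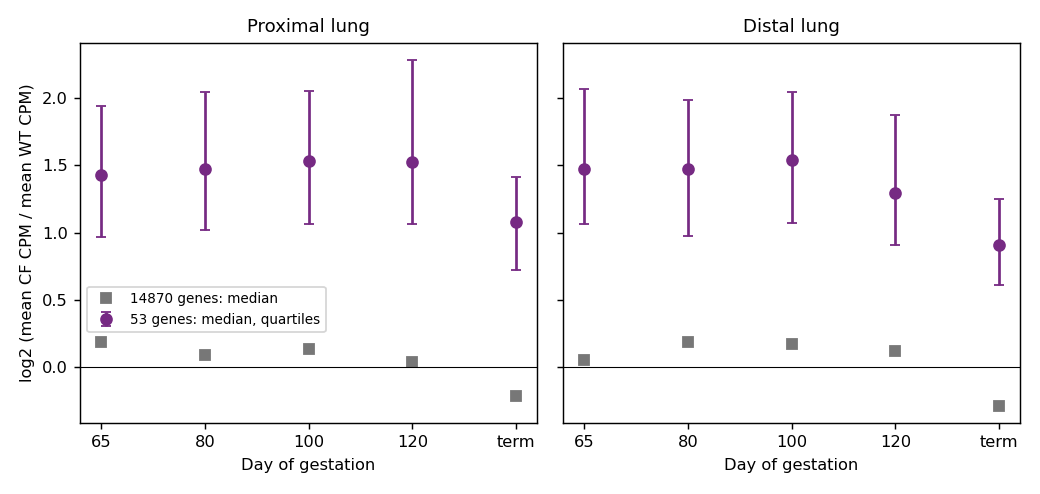
Log2 ratio of mean CF to mean WT CPM (2 libraries each) by day of gestation in proximal and distal lung. Purple points and bars give the median and quartiles of the 53 genes and grey squares the median of 14870 genes; in CPM both are lowest at term, where the 53 genes have medians of 1.08 and 0.91, whereas with TMM scaling term is not the lowest day in proximal lung.

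Counted at 2-fold, the members that reached it in proximal lung were 38 at 65 days, 40 at 80, 42 at 100, 41 at 120 and 31 at term, beside 11.2%, 8.1%, 7.65%, 9.64% and 5.28% of the 14870 genes. In distal lung they were 41, 37, 43, 38 and 22, beside 6.95%, 9.39%, 8.61%, 6.79% and 4.31%. Since the rule used these libraries, the counts describe the members and nothing is read from them. In CPM, 38 of the 53 had a smaller mean log2 CF/WT at term than before and 15 a larger one, but with TMM scaling these were 31 and 22, and with RLE scaling 29 and 24. The mean over days was larger in distal than in proximal lung for 15 members in CPM and for 10 with TMM. The lowest of the 10 values fell in distal lung at term for 23 members and the highest in proximal lung at 120 days for 16.

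Single genes departed from this course, in CPM. RBM5 and PRR14 had nearly the same difference throughout, with log2 CF/WT from 0.63 to 0.90 and from 0.42 to 0.65. GFRA4, SNRNP48, NOP14, AKAP8L, PHF1 and CEP95 had larger means at term than before, 2.53, 1.49, 1.29, 1.02, 1.05 and 0.98 against 1.97, 1.15, 1.04, 0.69, 0.62 and 0.50. Without both libraries of CF term replicate 2 the term means of SNRNP48 and NOP14 were 1.07 and 0.79, below their prenatal means, and that of CEP95 was 0.60. D2HGDH went from a mean of 1.71 before term to 0.45 at term, LOC106991905 from 1.97 to 0.44, TMEM86B from 2.75 to 1.12 and RASA3 from 1.65 to 0.64. In distal lung D2HGDH was at 89.5 ± 0.520 CPM in CF and 29.0 ± 0.266 CPM in WT at 100 days, and at 38.1 ± 1.71 and 30.1 ± 4.73 CPM at term (SD, n = 2), the WT libraries at 100 days being of 1 animal by their labels. The role groups, formed after the genes were seen and compared by no test, also differed in CPM. From the prenatal to the term mean, the median log2 CF/WT went from 1.57 to 0.91 in enzymes, from 1.66 to 0.99 in signalling and trafficking, from 1.48 to 1.17 in channels and transport, from 1.16 to 0.93 in chromatin and transcription and from 0.83 to 0.57 in translation. It went from 1.04 to 0.99 in RNA splicing and processing and from 1.01 to 0.98 in cilia, centrosome and germ cell bridges, and was higher at term for MYBPC3 (3.56 and 4.03). In both of these groups members went opposite ways. CCNL2 went from 1.04 to 0.67 and AKAP8L from 0.69 to 1.02, while MKS1 went from 1.01 to 0.38 and CEP95 from 0.50 to 0.98. The 3 secreted protein genes differed from each other, with IL18BP going from 1.86 to 0.94, ITIH4 from 2.38 to 2.45 and LCNL1 from 2.09 to 2.72.

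The libraries that set the limits were unevenly spread. The lowest CF library was a term library for 31 of 53 genes, and CF distal term replicate 2 alone for 14. On the WT side, WT distal term replicate 2 was the highest library for 13 genes and WT proximal replicate 2 at 65 days for 9. Without the 8 term libraries, 527 genes, the 53 among them, met the rule. Proximal libraries alone kept 126 genes, of which 52 were members, and distal libraries alone kept 99, the 53 among them. Fewer libraries make the rule easier to meet. A member can then drop out only through the limit on the median, so its staying is no finding.

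**Figure D4:**
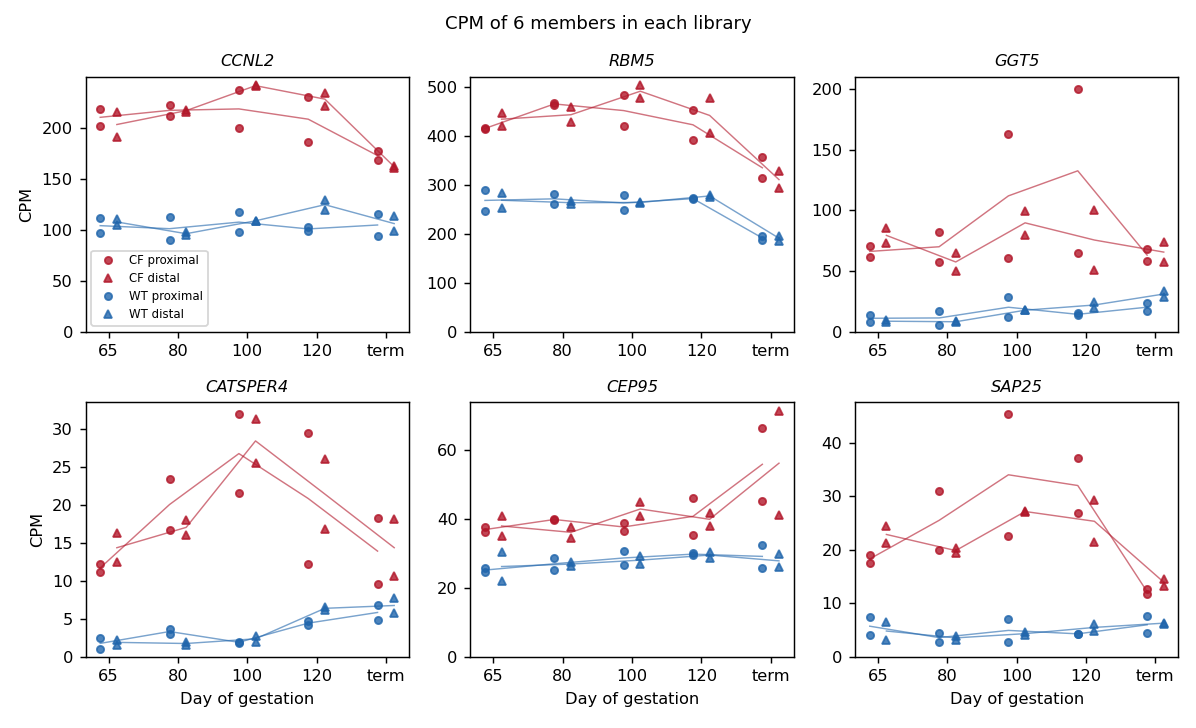
CPM of CCNL2, RBM5, GGT5, CATSPER4, CEP95 and SAP25 by day of gestation, with a symbol for each of 2 libraries of CF (red) or WT (blue) in proximal (circles) or distal lung (triangles) and lines through the means. CEP95 in CF at term reads 71.2 CPM in 1 distal library and 40.9 CPM in the other, whereas GGT5 and CATSPER4 rise toward term in WT distal lung.

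Changes between regions and between term and earlier days were tested within each genotype, as was the difference of these changes between CF and WT, with edgeR's quasi-likelihood test, Benjamini-Hochberg adjustment over all genes and the study's limits (adjusted p of 0.001 or less, log2 change of 0.58 or more). The rule bears on all of them, since the same libraries chose the members and a gene whose CF and WT ranges do not touch has limited room to move within either: the highest CF library was a median of 2.43 times the lowest for members and 3.82 times for genes of median CPM 1 or more, so a low number of calls is not a finding. Members were compared first between regions. Distal against proximal lung gave 0 members in CF, in WT and in the difference between them, and 0.0%, 0.0% and 0.0% of 20779 genes, by edgeR. At an unadjusted p under 0.05 there were 1, 0 and 1 members and 538, 332 and 422 genes, and DESeq2 also called 0 members. The median log2 change of the members from proximal to distal lung was -0.04 in CF and 0.05 in WT.

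Term was then compared with the mean of days 65 to 120. In proximal lung edgeR called 0 members in CF, WT or the difference at these limits (6.44%, 6.91% and 0.221% of 20344 genes), while at an unadjusted p under 0.05 there were 9, 6 and 11 members (beside 37.1%, 35.8% and 20.1% of genes), and DESeq2 called 1, 1 and 0. At an adjusted p of 0.05 with no limit on the change, edgeR called 4 members in CF and 4 in WT (25.4% and 24.4% of genes) and 0 for the difference (4.57%). In distal lung it called 1 member in CF (19.8% of 20084 genes), 2 in WT (14.8%) and 0 for the difference (1.07%), where DESeq2 called 5, 6 and 1. At an unadjusted p under 0.05 the difference had 18 members (beside 32.1% of genes). At an adjusted p of 0.05 with no limit on the change edgeR called 15, 11 and 9 members, beside 48.9%, 39.9% and 17.9% of genes. The DESeq2 counts of both regions have no share of all genes called by DESeq2 beside them, so nothing is read from them.

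CEP95 was the member that rose to term in CF distal lung, by 1.03 ± 0.18 on the log2 scale (SE; edgeR quasi-likelihood, Benjamini-Hochberg adjusted p = 2.53e-04). It was at 36.0 ± 2.32 to 42.8 ± 2.67 CPM before term and 56.1 ± 21.4 CPM at term (SD, n = 2), and without CF distal term replicate 2 the change was 0.49 with an adjusted p of 0.0469 by the same test, so the call rests on that library. In WT distal lung CEP95 stayed between 26.1 ± 5.88 and 29.5 ± 1.14 CPM (SD, n = 2).

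GGT5 and CATSPER4 were higher at term than the prenatal mean in WT distal lung. GGT5 went from 8.50 ± 0.844 CPM at 65 days to 21.9 ± 3.45 CPM at 120 days and 31.0 ± 3.94 CPM at term (SD, n = 2), a log2 change against the prenatal mean of 1.38 ± 0.21 (SE; edgeR, Benjamini-Hochberg adjusted p = 1.22e-04). CATSPER4 was at 1.90 ± 0.495 CPM at 65 days, already at 6.38 ± 0.311 CPM at 120 days and at 6.76 ± 1.36 CPM at term (SD, n = 2), a change of 1.44 ± 0.25 (SE; edgeR, Benjamini-Hochberg adjusted p = 3.73e-04). In CF distal lung GGT5 was at 79.4 ± 9.11 CPM at 65 days, 57.4 ± 10.48 at 80, 89.8 ± 14.0 at 100, 75.6 ± 34.5 at 120 and 65.6 ± 11.3 CPM at term (SD, n = 2). CATSPER4 was there at 14.4 ± 2.72, 17.0 ± 1.40, 28.4 ± 4.03, 21.4 ± 6.56 and 14.4 ± 5.33 CPM on the same days (SD, n = 2), highest at 100 days. Without WT distal term replicate 2 the adjusted p of GGT5 was 0.00664 by edgeR. The call of CATSPER4 held in 17 of 20 fits that left out 1 library, and its Benjamini-Hochberg adjusted p by edgeR was 0.0172 without WT distal term replicate 2, 0.00117 without WT distal replicate 2 at 80 days and 0.00102 without WT distal replicate 1 at 100 days.

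The 53 genes were compact. Mean intron length, which the rule did not use, had a median of 550.1 bases among members and of 2193 bases among 14333 genes, and 48 of 53 lay under the latter. The span from the first to the last exon base had a median of 8595 bases against 21084, while exonic length was nearer, at 2535 against 3047 bases, and members had a median of 12 exons against 9. SAP25 has a mean intron of 117 bases and PDIA2 of 129 bases, and the longest was that of CCDC64 at 6858 bases. The 12 genes of the mirrored set that have introns had a median of 2503 bases.

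Genes outside the 53 varied with intron length too. In 5 classes of mean intron length, split at the 10th, 25th, 50th and 75th percentiles, the classes held 14 of 1434, 20 of 2150, 12 of 3583, 4 of 3583 and 1 of 3583 genes as members. The median log2 CF/WT of the genes that are not members was 0.23, 0.20, 0.05, -0.02 and -0.06 from the shortest to the longest class. The spread between shortest and longest class was widest at 120 days in proximal lung (0.43 against -0.19) and was narrow in distal lung at 80 days (0.24 against 0.18) and at term (-0.21 against -0.28). These are descriptions across genes, which are not independent replicates, and their part in the CF against WT values of the members was not tested.

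**Figure D5:**
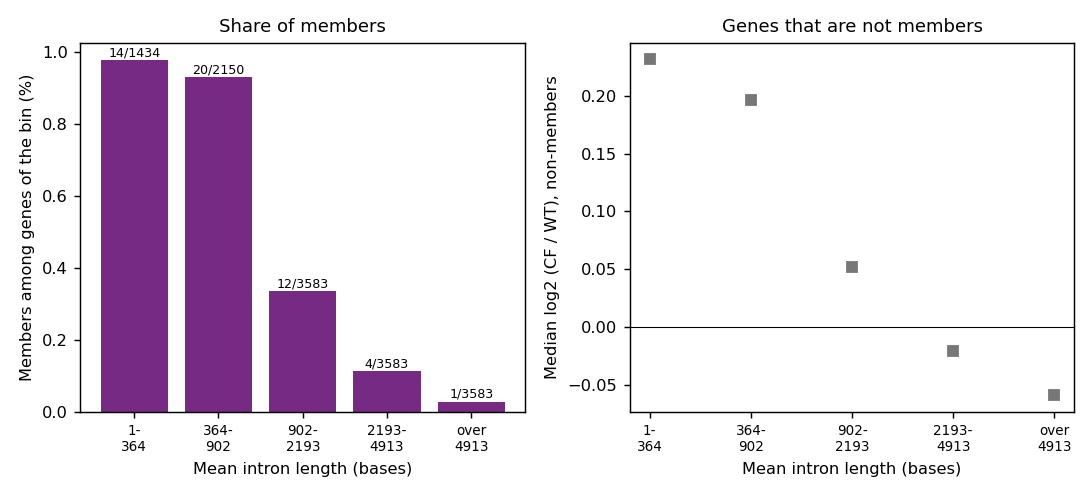
Left, the percent of genes that are members in 5 classes of mean intron length in bases, with members over genes above each bar; right, the median log2 CF/WT of the other genes in each class. Both fall from the shortest class (0.976% and 0.23) to the longest (0.0279% and -0.06).

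The members were spread over the genome, with 7 on chromosome 14 (13.2% of members, beside 5.75% of the 14870 genes), 6 on chromosome 3 (11.3% beside 9.81%), 5 on chromosome 24 (9.43% beside 3.64%) and 4 on chromosome 11 (7.55% beside 5.99%). Chromosomes 5, 12, 15, 17 and X held 3 each and chromosome 1 held 2 (3.77% beside 9.41%), and no pair of members were neighbours or overlapped. The imprinted list (30 genes in the table) held no member, nor did the hypoxia list, although 19 of its 20 genes had a mean log2 CF/WT above 0 (median 0.43). High values in some CF libraries bore on these means: EGLN3 had medians of 14.5 CPM in CF and 9.94 CPM in WT but reached 522 CPM in CF, and ANKRD37, BHLHE40, NDRG1 and HILPDA had lower medians in CF than in WT. The span of 12 members overlaps another gene, 9 of them on the opposite strand, and the strand setting of the counting is not given in the sources used here, so reads of the partners may not have been told apart. LCNL1 lies wholly within NSMF, which had median CPM of 10.8 in WT and 23.3 in CF, and LOC105609712 within LRRC47, with 14.0 in WT and 20.6 in CF. DOCK6 contains ANGPTL8, which was nearly silent at 0.0702 CPM in WT and 0.167 CPM in CF. IL18BP shares 143 bases with RNF121 on the same strand, whose medians were 37.2 CPM in WT and 38.9 CPM in CF.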

How the data were processed

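RNA-seq libraries were prepared by the authors from oligo-dT primed cDNA and sequenced as 100 bp paired reads. Alignment was to Oar_v4.0 with STAR, given as release 2.6 in the submitters' processing notes and as another release in the study's methods, and featureCounts 1.6.3 assigned reads to genes. The deposited values are raw counts per gene and library, neither normalized nor pooled. The annotation release and strand setting are not given in the sources used here. A further deposited table repeated the counts of the CF libraries and was not used, and the study's 50-day lungs were not analysed here.

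CPM were read counts scaled to the library's total over all genes, as elsewhere in the text, computed with pandas 2.3.3 in Python 3.11.15. Tests of changes within a genotype, and of their difference between genotypes, used edgeR 4.0.16 in R 4.3.3 with TMM scaling, filterByExpr (count minimum 10, total minimum 15), glmQLFit and glmQLFTest, in 1 fit over all 40 libraries for region and 1 fit per region for term, with a mean for each genotype, day and region. Adjusted p-values (Benjamini-Hochberg over all genes tested) of 0.001 or less with a log2 change of 0.58 or more were called. The SE was the log2 change over the square root of F. DESeq2 1.42.0 was the second tool. Mean intron length was taken from the exon coordinates in the count tables.

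The members and the gene lists were chosen with earlier results of these data known, and the heart muscle list was drawn up after the values were seen. Named were the 12 genes with the largest gaps and the 3 LOC genes with the largest gaps, the 5 of highest median CF CPM, those nearest each limit, called members, and members on a list. Others were named after their values were seen. Replicates are separate libraries, and p-values measure the spread between them. By the labels, both WT libraries of a region at 100 days are of 1 animal, so their spread is not one between animals. The main fit for region did not block the proximal and distal libraries of an animal. Same-numbered proximal and distal libraries of a day carry 1 animal label, and the correlation of their deviations from the group means over 20779 genes ran from -0.09 to 0.63. Across days a number joins different animals (median 0.02), so that the replicate block is given only as an alternative there.

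The fits were tested on simulated counts with 200 genes changed. These were drawn with the same dispersion for every gene, a mean that was otherwise equal over all conditions, and no animal effect. The shares called describe that setting and not the power in these data. In the term comparison of CF distal lung, over 19428 genes, 21% of 2-fold and 99% of 4-fold changes were called, and for the difference between genotypes there 4% and 75%. The precision of low values is set by depth: 1 CPM stands for 24.7 counts in the shallowest library, and this counting error does not cover the error between animals. Alternatives were RLE factors, no filter, DESeq2, thinned counts, a looser limit, the replicate block and each library left out.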

Additional observations from a re-analysis of the deposited data

How the results depend on the processing

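The number of genes higher in every CF library (53) was 75 with TMM-scaled CPM (39 of the 53 among them), 74 with RLE-scaled CPM (38) and 49 in thinned counts (46). It was 126 in proximal libraries alone, 99 in distal libraries alone and 527 without term, and leaving out 1 library gave 52 to 60, with 60 without WT proximal replicate 2 at 65 or at 100 days. Genes lower in every CF library (14) numbered 17 with TMM, 18 with RLE and 8 in thinned counts, 40 and 29 in proximal and distal libraries alone and 74 without term, and 14 to 18 with 1 library left out. Either rule is easier to meet with fewer libraries.

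The median log2 CF/WT in distal lung was 1.30 at 80 days, 1.38 at 100 days and 1.15 at term with TMM, and 1.29, 1.34 and 1.17 with RLE. With 1 library left out, the medians ran in distal lung from 1.38 to 1.54 at 65 days, 1.33 to 1.51 at 80, 1.48 to 1.58 at 100, 1.08 to 1.47 at 120 and 0.84 to 1.03 at term. In proximal lung they ran from 1.13 to 1.71, 1.31 to 1.72, 1.16 to 1.75, 1.38 to 1.76 and 0.84 to 1.26 on the same days.

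For term against prenatal lung, the members called in CF distal lung (1) were 15 at an adjusted p of 0.05, 5 by DESeq2 and 18 by DESeq2 at 0.05, and 0 to 3 with 1 library left out (0 without CF distal term replicate 2). It was 3 without CF distal term replicate 1, and 2 without either WT distal term library or either CF distal library at 120 days. In WT distal lung (2) they were 11, 6 and 14, then 4 in thinned counts and 1 to 3 with 1 library left out, with 1 without WT distal replicate 1 at 100 days or WT distal term replicate 2. In CF proximal lung (0) they were 4, 1 and 7, and 0 to 1 with 1 library left out (1 without CF proximal replicate 2 at 120 days), and in WT proximal lung (0) 4, 1 and 4. For the difference between genotypes they were 9, 1 and 11 in distal lung, and 2 by DESeq2 at 0.05 in proximal lung. At 0.05 without the 2 heart-rich libraries, proximal lung had 2 members called in CF and 2 in WT. The change of CEP95 ran from 0.49 to 1.38 with 1 library left out, and that of GGT5 from 1.203 to 1.55. Members called by DESeq2, in thinned counts or with libraries left out have no share of all genes called beside them. Nothing is read from those counts.

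With the replicate block, where the number joins animals of different days only by chance, 2 members were called in CF distal lung. At an adjusted p of 0.05 with the block, 19 were called in CF and 16 in WT distal lung, 12 for the difference there, and 4 each in CF and WT proximal lung. The shares of all genes called with the block are not given here, so nothing is read from these counts. Distal against proximal lung, where the block stands for the animal, gave 0 members with it and under every alternative run. No median or tested change turned its sign, but the order of days did: in proximal lung the term median (1.26 with TMM, 1.27 with RLE) was above that at 65 days (1.25 and 1.22), and members larger at term were 22 with TMM and 24 with RLE in place of 15. Leaving out both libraries of CF term replicate 1 or 2, an alternative chosen after seeing the data, gave 14 and 11. Depth before term was lower in WT than in CF, so the lowest WT values of rare genes such as PDIA2 have the largest counting error.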
